A study of Mus musculus with 23 samples.

Results

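The genes described here encode enzymes and chaperones that turn newly made procollagen chains into collagen that can form fibrils. The 10 genes are P4ha1, P4ha2, P4ha3, Serpinh1, Fkbp10, Crtap, Pcolce, Pcolce2, Bmp1 and Tll1. They were chosen by symbol, with earlier results of these data known, from a table of 39179 genes. All 10 were found and tested among 14896 genes. Total RNA of mesenteric arteries, the resistance vessels of the gut, was sequenced from male C57BL/6J mice aged 10 to 12 weeks. Angiotensin II (Ang II), a pressor peptide, was infused under the skin at 1000 ng per kg and minute by osmotic minipump for 7 or 14 days, and controls were sham-operated. No mouse carried a transgene or a deletion per the labels. There were 6 sham and 6 Ang II libraries at 7 days, and 6 sham and 5 Ang II libraries at 14 days.

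Procollagen chains are modified and folded in the endoplasmic reticulum. Prolyl 4-hydroxylases, whose catalytic alpha subunits are the products of P4ha1, P4ha2 and P4ha3, hydroxylate proline and so stabilise the triple helix. Serpinh1 encodes a collagen-specific chaperone, Fkbp10 a prolyl isomerase that also acts on collagen cross-linking, and Crtap a partner of the prolyl 3-hydroxylase complex. Outside the cell the proteinases encoded by Bmp1 and Tll1 remove the C-propeptide, and the products of Pcolce and Pcolce2 enhance that cleavage.

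The stretch before the start site is shown for P4ha1 and P4ha3, the most and the least abundant alpha subunit, and for Serpinh1, whose level went with that of P4ha1 from library to library. RefSeq held such windows of 250 bases for 8 of the 10 genes on GRCm38.p6. The windows lie at chr10:59323046-59323295 on the plus strand, chr7:100285270-100285519 on the plus strand and chr7:99353240-99353489 on the minus strand, each written 5′ to 3′ along the gene. Capitals mark the core hypoxia element ACGTG and the GC box GGGCGG, on either strand.
P4ha1: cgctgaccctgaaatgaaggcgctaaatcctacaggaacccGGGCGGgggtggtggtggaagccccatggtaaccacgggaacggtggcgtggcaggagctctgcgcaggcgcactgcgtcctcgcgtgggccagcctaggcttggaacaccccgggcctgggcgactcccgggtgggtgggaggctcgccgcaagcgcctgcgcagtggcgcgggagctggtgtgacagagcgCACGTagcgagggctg
P4ha3: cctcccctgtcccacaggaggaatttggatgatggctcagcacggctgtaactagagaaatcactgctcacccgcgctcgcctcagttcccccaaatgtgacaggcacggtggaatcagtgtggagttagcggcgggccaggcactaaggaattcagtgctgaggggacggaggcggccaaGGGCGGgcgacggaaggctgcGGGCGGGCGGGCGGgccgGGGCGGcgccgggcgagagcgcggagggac
Serpinh1: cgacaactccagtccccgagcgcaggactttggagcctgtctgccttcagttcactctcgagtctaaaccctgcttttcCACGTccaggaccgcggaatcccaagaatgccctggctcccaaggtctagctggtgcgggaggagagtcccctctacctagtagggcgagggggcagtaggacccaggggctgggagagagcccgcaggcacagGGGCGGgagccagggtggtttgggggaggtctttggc
ACGTG was found in the windows of P4ha1, Serpinh1 and also P4ha2, and in 16.6% of all 32851 windows of this length. P4ha3 held no ACGTG and 5 copies of GGGCGG, of which 3 overlap one another, while 32.7% of all windows held at least 1 copy. The CCAAT box (33.8% of all windows), the TATA box TATAAA (12.4%), the AP-1 site TGACTCA (4.46%) and the heat shock core GAANNTTC (6.69%) were searched on both strands as well, and none of them was found in the 3 windows. These letters are a description and say nothing on binding.

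The deposited values are reads per gene scaled by 1 factor for each library, called the signal here. Whole reads could be recovered, and the libraries held 4471038 to 21509283 reads. All libraries held smooth muscle markers, with the summed signal of 9 genes between 5565 and 9561. All also held pancreatic acinar transcripts, at 4.62% to 13.7% of reads. Of 11 acinar markers 9 were called lower at 14 days (limma adjusted p under 0.05). At 7 days 0 of the 11 were called, yet 0 had a positive log2 change, and the median change was -0.48. The transcript AY036118 took 0.0431% to 36.2% of reads and differed between the groups. Its median share was 16.4% in sham and 4.63% in Ang II libraries at 7 days, and 3.13% and 0.298% at 14 days. Of the libraries that stood apart, replicate 1 of the sham group at 7 days was lowest in its group for 7 of the 10 genes. Replicate 1 of the Ang II group at 14 days was highest in its group for 6, and replicate 2 of that group was lowest for 6. In the sham group at 14 days replicate 5 was highest for 6 and replicate 4 lowest for 5. Replicate 4 was highest for 5 in the sham and in the Ang II group at 7 days. Each library carries its own number in its title, and p-values measure the spread between libraries.

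Levels can be compared between genes only per length, here the signal per kb of merged exon. Serpinh1 was highest, at 172 ± 41.9 per kb in sham arteries at 7 days (SD, n = 6), and exceeded the next gene in every library of every group. Pcolce followed at 25.9 ± 5.02 and P4ha1 at 17.97 ± 2.56 per kb. Crtap at 10.4 ± 1.82, Pcolce2 at 10.1 ± 1.85 and Fkbp10 at 8.08 ± 1.23 per kb had overlapping ranges, and their order changed between groups. Bmp1 lay at 6.03 ± 0.819 and P4ha2 at 3.86 ± 0.401 per kb. Tll1 at 0.914 ± 0.200 and P4ha3 at 0.214 ± 0.185 per kb were lowest, and their ranges overlapped in both Ang II groups but not in the sham groups.

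**Figure D1:**
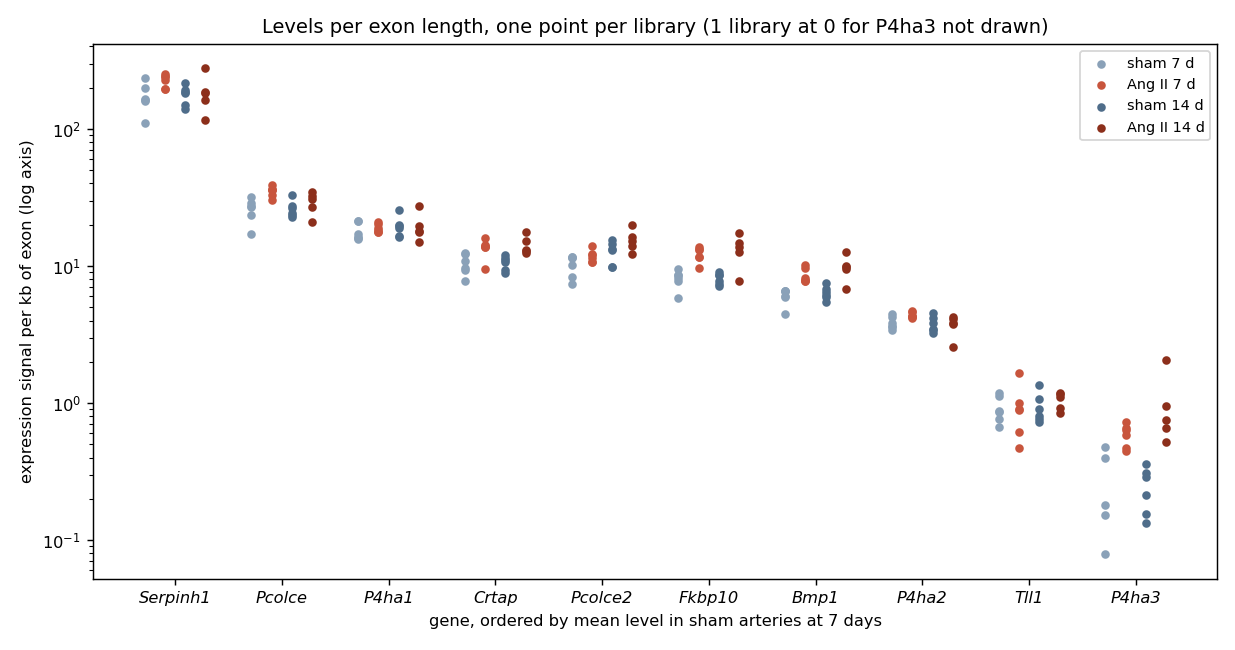
Signal per kb of merged exon (log axis) for each of the 10 genes, with 1 point per library and the 4 groups side by side. Serpinh1 lies above all other genes in each group, and P4ha3 is lowest in both sham groups, where 1 library listed at 0 is not drawn.

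Whether the maturation genes move with Ang II was tested by limma on log2(signal + 0.5) across all 14896 genes, with Benjamini-Hochberg adjustment. The threshold for a call was an adjusted p of 0.05. Fkbp10 and Bmp1 rose at both times. P4ha3 also passed the threshold at 14 days, but it had entered the test only through the infused libraries, so it is set apart from the count. Of the other 9 genes, 2 were called higher at 7 days, where 0.752% of all tested genes were called higher, and 2 at 14 days, where the share was 4.04%. In either direction the shares of all genes called were 0.819% and 6.06%. None of the 10 was called lower, against 0.0671% of genes at 7 days and 2.01% at 14 days. The median log2 fold change of those 9 genes was 0.38 at 7 days and 0.17 at 14 days, against 0.00 and 0.03 over all tested genes. The numbers in the titles fall into series by their leading 2 digits (26, 27, 28 and 30), which the labels do not explain. With that series as a term 0 of the 10 were called at either time, and with no filter on low values 0 were called at 7 days. The 30 series holds Ang II libraries at 14 days only. In bulk RNA, fewer cells of a type and less RNA per cell cannot be told apart.

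**Figure D2:**
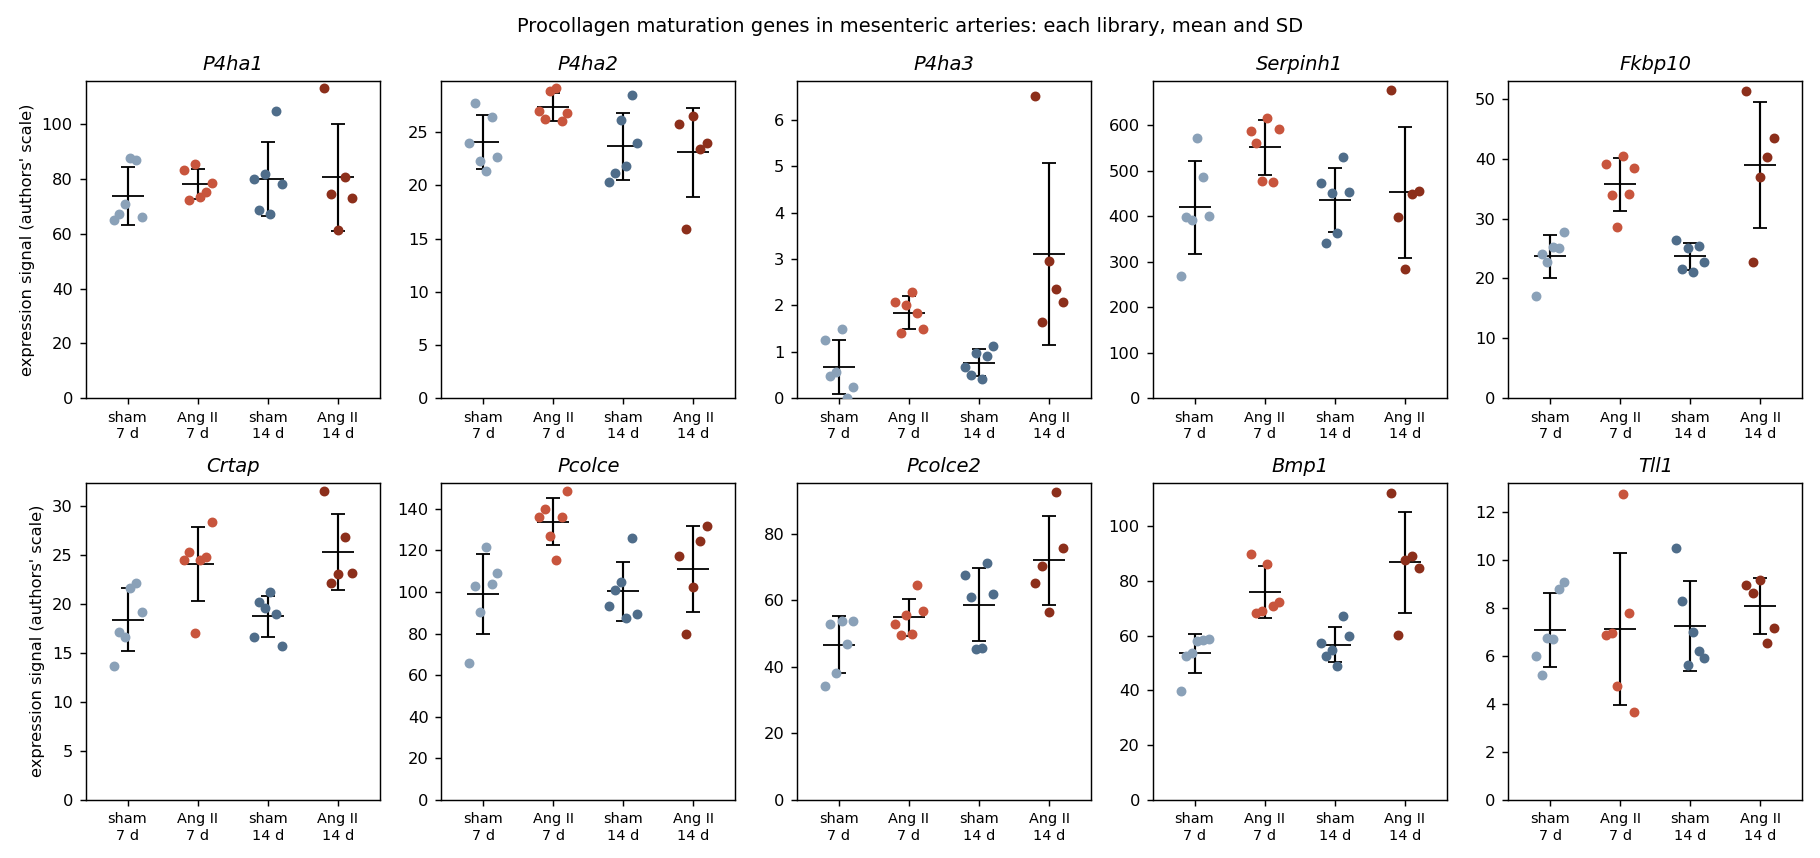
Signal of each gene on the authors' scale, with 1 point per library, the mean and the SD in the 4 groups. For Fkbp10 and Bmp1 all 6 Ang II libraries at 7 days lie above the sham libraries, and for P4ha3 and Crtap all 5 Ang II libraries at 14 days do. Of all tested genes, 1.08% at 7 days and 2.36% at 14 days were higher without overlap. P4ha3 had passed the filter on low values only through the infused libraries, so that share is no fair background for it.

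Neither of the abundant alpha subunits of prolyl 4-hydroxylase was called. P4ha3, the rare subunit, passed the filter on low values through the infused libraries, since 2 and 1 of the 6 sham libraries reached a signal of 1 at 7 and 14 days, against all infused libraries. Its call at 14 days therefore comes from a gene selected where it was high. P4ha3 had a lowest, median and highest signal of 0, 0.521 and 1.49 in the 6 sham libraries at 7 days and of 0.417, 0.788 and 1.13 in those at 14 days. The 6 Ang II libraries at 7 days lay between 1.39 and 2.29, with a median of 1.92. The Ang II libraries at 14 days had 6.51, 1.63, 2.96, 2.35 and 2.06. All 5 infused libraries at 14 days lay above the sham libraries, while at 7 days 4 of 6 did. Of all tested genes 2.36% were higher without overlap at 14 days, a share that does not allow for this selection. The log2 fold change was 1.41 ± 0.31 (SE) at 14 days, or 2.65-fold with a 95% interval of 1.70 to 4.12 (limma adjusted p = 0.0106). At 7 days it was 1.14 ± 0.29 (adjusted p = 0.068).

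P4ha3 is rare, and its reads summed to 36, 155, 70 and 328 in the sham and Ang II groups at 7 days and the sham and Ang II groups at 14 days. These sums are not scaled for depth, which differed between the groups. In the same order, the median library held 7201545.5, 13894240, 14400312.5 and 18322122 reads. The library at 0 reads was a sham library at 7 days, where 3 reads, the limit a count of 0 allows for counting error, equal a signal of 0.977. Without replicate 1 of the Ang II group at 14 days the log2 change at 14 days was 1.13 (adjusted p = 0.024). With the series of title numbers as a term it was 1.74 (adjusted p = 0.056). Leaving out replicate 1 of the sham group at 7 days brought the 7-day change to 1.29 (adjusted p = 0.043). It was called in 3 of 23 fits that each left out a library and not in the other 20. In these fits the log2 change ran from 0.93 to 1.33 and the limma adjusted p from 0.022 to 0.15.

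P4ha1, which encodes the main alpha subunit of most cells, had a mean signal of 73.9 ± 10.5 in sham and 78.1 ± 5.43 in Ang II arteries at 7 days (SD, n = 6 each). At 14 days it had 80.2 ± 13.5 in sham (n = 6) and 80.6 ± 19.5 in Ang II arteries (n = 5). The groups overlapped at both times. Its log2 fold change was 0.09 at 7 days, with a 95% interval of -0.16 to 0.34, and -0.01 at 14 days, with an interval of -0.27 to 0.26 (limma adjusted p = 0.91 and 0.98). The sign at 14 days is not fixed, since scaling by the total without acinar transcripts and AY036118 gave 0.13.

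P4ha2, which encodes another alpha subunit, had a mean signal of 24.1 ± 2.50 in sham and 27.3 ± 1.32 in Ang II arteries at 7 days, and of 23.7 ± 3.15 and 23.1 ± 4.20 at 14 days. The groups overlapped at both times. Its log2 fold change was 0.19 ± 0.11 at 7 days and -0.05 ± 0.11 at 14 days (limma adjusted p = 0.65 and 0.83), and the latter was 0.09 under the scaling without acinar transcripts.

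Per kb, P4ha3 made up 0.976% ± 0.802 of the summed signal of the 3 alpha subunits in sham and 2.45% ± 0.434 in Ang II arteries at 7 days. At 14 days its share was 1.02% ± 0.332 in sham and 3.88% ± 1.53 in Ang II arteries. The 14-day groups did not overlap and the 7-day groups did. P4ha3 had passed the filter on low values only through the infused libraries, so it was selected where it was high. P4ha1 held a mean of 79.2% to 82.8% of the signal in the 4 groups. These shares were not tested.

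Of the chaperones and the partner of prolyl 3-hydroxylation, Fkbp10 rose at both times. Fkbp10 had a lowest, median and highest signal of 17.1, 24.6 and 27.8 in sham and of 28.6, 36.3 and 40.5 in Ang II libraries at 7 days. In the sham libraries at 14 days it had 21.1, 23.9 and 26.4. The Ang II libraries at 14 days had 51.3, 22.7, 36.9, 40.3 and 43.4. The infused libraries at 7 days all lay above sham, where 1.08% of tested genes were higher without overlap. At 14 days 4 of 5 lay above sham, and replicate 2 lay within the sham range. The log2 fold change was 0.59 ± 0.14 at 7 days, 1.504-fold (95% interval 1.23 to 1.84), and 0.66 ± 0.15 at 14 days, 1.58-fold (1.28 to 1.96), with limma adjusted p = 0.0466 and 0.0118.

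The 7-day call of Fkbp10 lies close to the threshold. It held in 5 of 23 fits that each left out a library, with adjusted p up to 0.13, while the log2 change stayed between 0.50 and 0.65. With the series of title numbers as a term the adjusted p was 0.10 at 7 days and 0.19 at 14 days. Within the 27 and 28 series of title numbers, which hold both groups at 7 days, the log2 difference was 0.59 and 0.50, and within the 26 series at 14 days it was 0.57. With only the 2 groups of 14 days in the fit the adjusted p was 0.053.

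Serpinh1 had a mean signal of 420 ± 102 in sham and 552 ± 60.2 in Ang II arteries at 7 days. At 14 days it had 435 ± 70.3 in sham arteries, and the Ang II libraries had 677, 399, 283, 448 and 455. Of the infused libraries, 3 of 6 lay above all sham libraries at 7 days and 1 of 5 at 14 days, where 1 lay below them. Its response was a log2 fold change of 0.42 ± 0.17 at 7 days and 0.02 ± 0.18 at 14 days (limma adjusted p = 0.40 and 0.96), and the latter was -0.04 under upper-quartile scaling.

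Crtap had a lowest, median and highest signal of 13.7, 18.1 and 22.2 in sham and of 16.98, 24.6 and 28.4 in Ang II libraries at 7 days, and of 15.7, 19.3 and 21.2 in sham libraries at 14 days. The Ang II libraries at 14 days had 31.5, 22.1, 22.99, 26.8 and 23.2. They lay above all sham libraries of that time, which 2.36% of tested genes did, and at 7 days 5 of 6 did. This came to a log2 fold change of 0.38 ± 0.12 at 7 days and 0.42 ± 0.13 at 14 days, and neither was called (limma adjusted p = 0.20 and 0.054). At 14 days Crtap was called in the count tests on recovered reads, by edgeR at an adjusted p of 0.037 and by DESeq2 at 0.025. Those tests were not repeated with a library left out. In limma Crtap was called in 4 of 23 fits that each left out a library, with adjusted p from 0.028 to 0.12. Without replicate 1 of the Ang II group the limma adjusted p was 0.12.

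Neither enhancer of C-propeptide cleavage was called. Pcolce had a lowest, median and highest signal of 65.6, 103 and 122 in sham and of 116, 136 and 148 in Ang II libraries at 7 days, and 5 of 6 infused libraries lay above the sham range. At 14 days the sham libraries had 87.6, 97.0 and 126 and the Ang II libraries 117, 79.7, 103, 124 and 132, of which 1 lay above and 1 below the sham range. In log2 fold change this was 0.46 ± 0.13 at 7 days and 0.14 ± 0.14 at 14 days (limma adjusted p = 0.11 and 0.56).

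Pcolce2 had a mean signal of 46.6 ± 8.57 in sham and 54.8 ± 5.62 in Ang II arteries at 7 days, and of 58.6 ± 10.9 and 72.0 ± 13.4 at 14 days. The groups overlapped at both times. Its log2 fold changes were 0.25 ± 0.13 and 0.30 ± 0.14 (limma adjusted p = 0.61 and 0.19). Sham arteries at 14 days were higher than those at 7 days by 0.33 ± 0.13, with an adjusted p of 0.61. Per kb, Pcolce2 made up a mean of 25.3% to 35.0% of the summed signal of both enhancers in the 4 groups.

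Bmp1, which encodes the main C-proteinase, rose at both times. Its lowest, median and highest signal was 39.6, 55.9 and 58.6 in sham and 68.4, 71.4 and 89.9 in Ang II libraries at 7 days, and 48.8, 55.9 and 67.0 in sham libraries at 14 days. The Ang II libraries at 14 days had 112, 60.3, 87.7, 89.0 and 84.9. No infused library overlapped with sham at 7 days, where 1.08% of tested genes were higher without overlap, and at 14 days replicate 2 lay within the sham range. The log2 fold change was 0.51 ± 0.12 at 7 days, 1.42-fold (95% interval 1.196 to 1.69), and 0.59 ± 0.13 at 14 days, 1.51-fold (1.26 to 1.804), with limma adjusted p = 0.0417 and 0.0090.

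The 7-day call of Bmp1 held in 10 of 23 fits that each left out a library, with adjusted p up to 0.13 and a log2 change between 0.42 and 0.54. Without replicate 1 of the sham group at 7 days it was 0.42 (adjusted p = 0.10). With the series of title numbers as a term the adjusted p was 0.084 at 7 days and 0.084 at 14 days. Within the 27 and 28 series the 7-day log2 difference was 0.57 and 0.38, and within the 26 series the 14-day difference was 0.65, in each case with no overlap. The series are small, with 3 Ang II against 4 sham libraries in the 27 and 26 series and 3 against 2 in the 28 series. No share of all genes without overlap was computed within a series.

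Tll1, which encodes a related proteinase, had a mean signal of 7.09 ± 1.55 in sham and 7.14 ± 3.17 in Ang II arteries at 7 days, and of 7.25 ± 1.86 and 8.10 ± 1.17 at 14 days. The groups overlapped at both times. Its log2 fold change was -0.06 at 7 days (95% interval -0.49 to 0.37) and 0.17 at 14 days (-0.28 to 0.62), with limma adjusted p = 0.97 and 0.66. The sign at 7 days is not fixed, since edgeR on recovered reads gave 0.06.

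**Figure D3:**
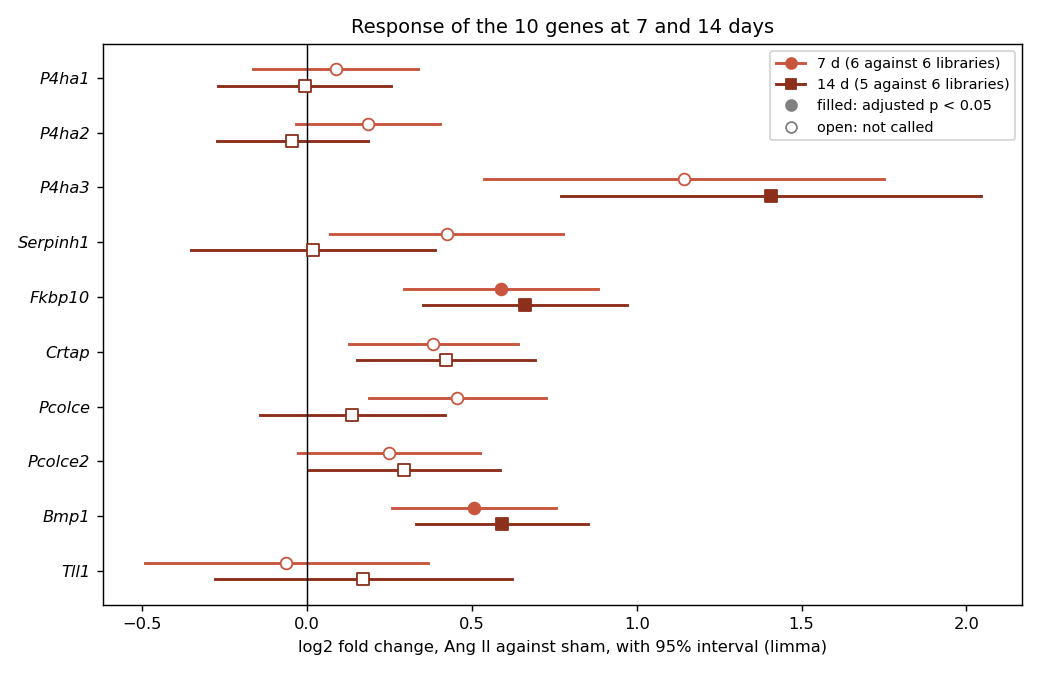
Log2 fold change of Ang II against sham with its 95% interval from limma, at 7 days (circles) and 14 days (squares), with filled symbols for genes called at an adjusted p under 0.05. Fkbp10 and Bmp1 are filled at both times and P4ha3 at 14 days only, and the intervals of the 2 times overlap for every gene.

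The response at 14 days minus that at 7 days was tested directly, and 0 of 14896 genes passed in limma (1396 at an unadjusted p under 0.05), so the share called was 0%. In edgeR 0 genes and in DESeq2 7 genes passed. For the 10 genes the largest differences were those of Serpinh1 at -0.41 ± 0.25 and Pcolce at -0.32 ± 0.19 (adjusted p = 0.59 and 0.58). P4ha3 had a difference of 0.26, with a 95% interval of -0.62 to 1.14. Sham arteries at 14 days against 7 days likewise gave 0 calls in limma (1128 genes at an unadjusted p under 0.05), 0 in edgeR and 1 in DESeq2, and none of the 10 genes was higher without overlap, which 0.316% of tested genes were.

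Other genes of the pathway were taken from lists chosen with earlier results of these data known. Of 26 tested genes for modification, folding and export in the endoplasmic reticulum, 1 was called higher and 0 lower at 7 days, and 5 higher and 1 lower at 14 days. Plod2, a lysyl hydroxylase of the collagen telopeptides, rose by 0.71 ± 0.14 at 7 days and 0.75 ± 0.15 at 14 days on the log2 scale (limma adjusted p = 0.0105 and 0.0057). Plod1, the lysyl hydroxylase of the helix, rose by 0.57 ± 0.12 at 14 days (adjusted p = 0.0105). The other calls at 14 days, named after their values were seen, were the prolyl 3-hydroxylase genes Lepre1 (0.49), Leprel1 (0.43) and Leprel2 (0.52), all higher, and Fkbp11, which fell by 0.75. The median log2 change of the list was 0.18 at 7 days and 0.08 at 14 days.

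Of the 7 other extracellular proteinase genes 4 were tested, and 2 were called higher at 7 days and 1 at 14 days. Adamts2, the N-proteinase of procollagen, rose by 1.03 ± 0.17 at 7 days and 1.01 ± 0.18 at 14 days (limma adjusted p = 0.0020 and 0.0025). Adamts3, named after its value was seen, rose by 0.64 at 7 days. None of the 4 genes for prolyl hydroxylases of hypoxia-inducible factor (Egln1, Egln2, Egln3 and P4htm) was called at either time.

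The procollagen genes themselves rose as well. Of 9 tested fibrillar procollagen genes, 5 were called higher at each time and 0 lower, with a median log2 change of 0.90 at 7 days and 0.76 at 14 days. Col1a1 rose by 1.42 ± 0.25 and 1.39 ± 0.27, Col1a2 by 1.15 ± 0.23 and 1.07 ± 0.24, and Col3a1 by 1.27 ± 0.18 and 1.02 ± 0.19 at 7 and 14 days. Col5a1 rose by 0.99 ± 0.21 and 0.87 ± 0.22, and Col5a2 by 0.90 ± 0.16 and 0.76 ± 0.17. Their limma adjusted p ran from 0.00048 to 0.022.

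The signal of each gene was then set against the summed signal of Col1a1, Col1a2 and Col3a1, a comparison added after the values had been seen. Relative to that sum, 9 of the 10 genes were called lower at 7 days and 8 at 14 days. That is near the background and not a result about these genes, since 97.4% of all tested genes were called lower at 7 days and 90.8% at 14 days. None of the 10 was called higher, against 0.0134% and 0.0403% of genes. The median log2 change relative to the sum was -0.85 for the 10 genes and -1.25 for all tested genes at 7 days, and -0.87 and -1.07 at 14 days. Serpinh1 had 17.6 ± 4.67 per 100 units of that sum in sham and 9.75 ± 1.75 in Ang II arteries at 7 days, and 16.03 ± 2.48 and 7.73 ± 2.16 at 14 days.

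P4ha3 was not called in this comparison, with log2 changes relative to the sum of -0.11 ± 0.33 at 7 days and 0.30 ± 0.35 at 14 days (limma adjusted p = 0.74 and 0.40). Fkbp10 was called lower at 7 days, at -0.66 ± 0.23 (adjusted p = 0.0044), and not called at 14 days, at -0.44 ± 0.24 (adjusted p = 0.071). Bmp1 was called lower at both times, at -0.75 ± 0.22 and -0.51 ± 0.24 (adjusted p = 0.0013 and 0.035). These calls are no result about the genes, since 97.4% of all tested genes were called lower at 7 days and 90.8% at 14 days. The medians over all tested genes, -1.25 and -1.07, lay below the values of P4ha3, Fkbp10 and Bmp1.

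**Figure D4:**
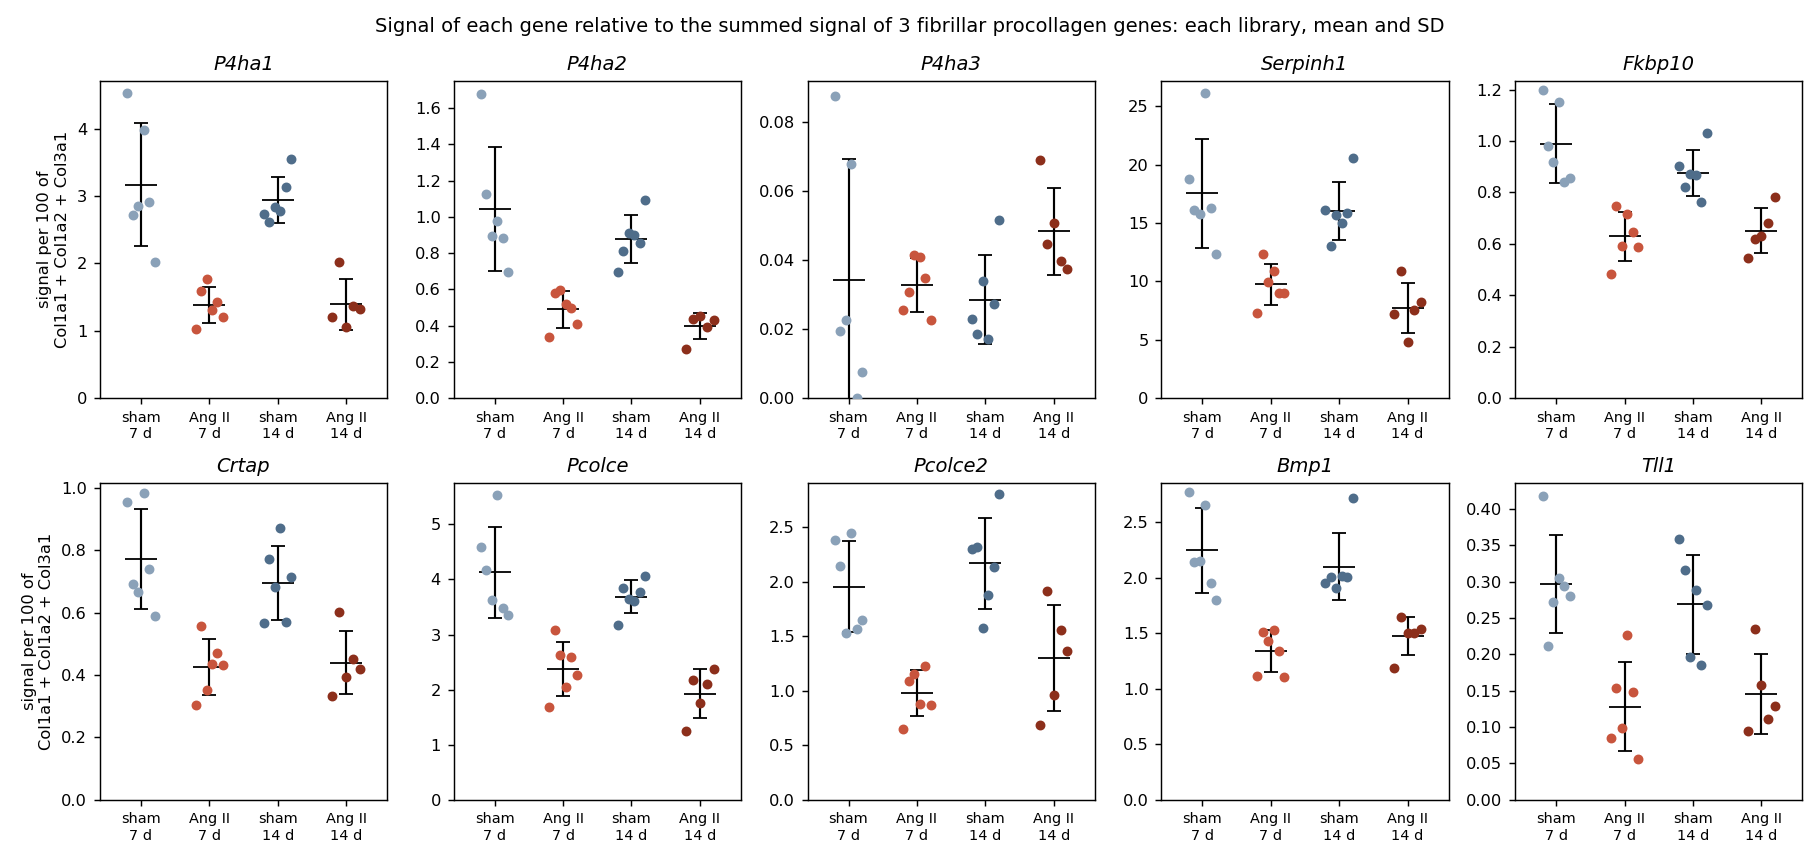
Signal of each gene per 100 units of the summed signal of Col1a1, Col1a2 and Col3a1, with 1 point per library, the mean and the SD in the 4 groups. The infused libraries lie below all sham libraries at both times for P4ha1, P4ha2, Pcolce and Bmp1. The groups overlap at both times for P4ha3 and Tll1, at 7 days for Serpinh1, and at 14 days for Fkbp10, Crtap and Pcolce2. Of all tested genes, 97.4% at 7 days and 90.8% at 14 days were called lower relative to that sum. No share of all genes without overlap was computed for it.

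Markers of fibroblasts, the cells that make most fibrillar collagen, moved as well. Of 10 markers 3 were called higher at 7 days (Lum, Pi16 and Mfap5) and 2 at 14 days (Pi16 and Lum). Their summed signal ran from 2943 to 3623 in sham and from 3313 to 5346 in Ang II arteries at 7 days, and from 3501 to 4480 and from 2858 to 5557 at 14 days. Replicate 1 of the Ang II group at 14 days had the highest sum of its group, and replicate 3 the lowest.

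Per 1000 units of the fibroblast sum, Fkbp10 had 7.08 ± 0.825 in sham and 8.79 ± 1.40 in Ang II arteries at 7 days, a ratio of means of 1.24, and 5.99 ± 0.450 and 9.39 ± 3.08 at 14 days, a ratio of 1.57. Bmp1 had 15.99 ± 1.72 and 18.6 ± 2.42 at 7 days, a ratio of 1.16, and 14.3 ± 1.35 and 20.98 ± 6.56 at 14 days, a ratio of 1.46. The groups overlapped at both times for both genes. Without the fibroblast sum the limma folds of Fkbp10 and Bmp1 were 1.504 and 1.42 at 7 days, and 1.58 and 1.51 at 14 days. A ratio of means and a limma fold are unlike measures. P4ha3 had 0.204 ± 0.173 and 0.446 ± 0.0441 at 7 days, with overlap, and 0.193 ± 0.0745 and 0.720 ± 0.363 at 14 days, with no overlap. P4ha3 had passed the filter on low values only through the infused libraries, and no share of all genes without overlap was computed for this ratio. The part of the fibroblast markers in these results was not tested. Of the other markers called at 14 days, Csf1r was the 1 of 10 for macrophages and Des the 1 of 9 for smooth muscle, both higher. None of the endothelial, adipocyte, mesothelial, erythroid or nerve markers was called at either time.

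How the genes varied from library to library was described by Pearson's r of log2 values over 23 libraries after each group mean was subtracted, which shares library depth and composition. Over 45 pairs of the 10 genes the median r was 0.31, and 36 were positive. The most alike were Fkbp10 and Bmp1 (r = 0.89) and P4ha1 and Serpinh1 (r = 0.82), the pair whose windows are printed above. Among tested genes outside the 10, Fkbp10 was most like Ltbp2 (0.92) and Flii (0.91), and Bmp1 most like C1qtnf6 (0.89) and Ltbp2 (0.88). P4ha1 was most like Ahsa1 (0.84) and Pdia4 (0.81), Serpinh1 most like Tmbim6 (0.89) and Hist1h1b (0.85), and P4ha3 most like Pkm (0.84) and Nudt3 (0.80). For Crtap these were Pofut2 (0.86) and Scarf2 (0.85), and for Pcolce Bcam (0.85) and Thbs3 (0.84). The remaining genes had r between 0.77 and 0.79 with their most alike genes. Each of these r was picked as the highest over all tested genes outside the 10, and no background for such a highest r was computed. Those of P4ha3 rest on 0 to 125 reads per library.

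Gene positions are those of GENCODE M21 on GRCm38. P4ha3 spans chr7:100285520-100319699 on the plus strand, Fkbp10 chr11:100415697-100424824 on the plus strand and Bmp1 chr14:70474558-70520234 on the minus strand. Fkbp10 overlaps Nt5c3b on the other strand, Crtap overlaps 4930520O04Rik on the other strand, and Pcolce overlaps Fbxo24 on the same strand. Nt5c3b had a mean signal of 11.3 in sham and 10.6 in Ang II arteries at 7 days, and 9.99 and 9.16 at 14 days. The strand setting of the counting is not given in the sources used here, so reads of such partners may be included.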

How the data were processed

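The authors deposited 1 table of normalized signal values per gene and library. The build was mm10, and edgeR 3.6.8, R 3.2.3, HTSeq 0.5.3p3, STAR 2.3.1, FastQC and bcl2fastq 1.8.4 were used, per the submitters' processing notes. Normalization and strand setting: not given in the sources used here. In each library 100% of the values above 0 were whole multiples of the smallest value within 0.001 read, so the deposited signal is a read count divided by a factor per library.

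Signal was tested by limma 3.58.1 (trended, robust; R 4.3.3) on log2(value + 0.5), with all 23 libraries and 4 group means. Genes with a value of 1 or more in at least 5 libraries were tested, and a fold change on this scale understates that of low genes. Benjamini-Hochberg adjustment was made per contrast, with calls under 0.05. edgeR 4.0.16 and DESeq2 1.42.0 on recovered reads, other scalings, pseudocounts and filters, and leaving out each library were alternatives. The scripts were tested on simulated data.

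The members and lists were chosen with earlier results of these data known. The genes named beside the 10 were at most 8 called pathway genes by smallest p, the 2 most alike genes per member and at most 3 called markers per list. The ratios to procollagen, to fibroblast markers and among subunits were added after values were seen. The procollagen ratio was first tested by exact permutation over the 10 genes alone, which called 9 of 10 at each time; this was replaced by limma over all genes because it gave no background. Sequences are RefSeq windows on GRCm38.p6, and no window was used for Fkbp10 and Bmp1. Intervals and floors cover counting error only where they rest on reads.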

Additional observations from a re-analysis of the deposited data

Results flagged for a closer look

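Of 40 sets of values (10 genes in 4 groups), 3 had a library far from the rest of its group by Dixon's criterion, and chance flags about 1 in 20. P4ha3 was 6.51 in replicate 1 of the Ang II group at 14 days, against 1.63 to 2.96 in the other libraries of that group. Crtap was 16.98 in replicate 3 of the Ang II group at 7 days, against 24.5 to 28.4. Bmp1 was 39.6 in replicate 1 of the sham group at 7 days, against 52.7 to 58.6, and that library had a summed nerve marker signal of 857, against 109 to 195 in the rest of the group. Their part in the results was not tested beyond leaving each library out.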

How the results depend on the processing

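No paired analysis was possible because the labels give no replicate numbers that groups share. At 7 days the count of 2 called genes became 0 with no filter on low values, 0 with the series of title numbers as a term, and 1 (Bmp1) with scaling by the total without acinar transcripts and AY036118. It was 0 to 3 when a library was left out. At 14 days the count of 3, P4ha3 included, became 5 without acinar transcripts and AY036118, 0 with the series term, and 2 to 4 in the other alternatives, with 3 to 4 when a library was left out. The cause was not tested.

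Of all genes, 112 were called higher and 10 lower at 7 days, and 602 higher and 300 lower at 14 days. DESeq2 called 173 and 39 at 7 days, 1029 and 766 at 14 days, 3 and 4 for the difference of responses and 1 for sham. The calls at 14 days were 163 lower with no filter, 464 lower with upper-quartile scaling, 2235 higher without acinar transcripts, 283 and 101 in a fit of only the 2 groups, and 14 and 2 with the series term, which left 6 lower at 7 days. Leaving out a library gave 62 to 144 higher and 4 to 14 lower at 7 days, 281 to 1408 higher and 76 to 783 lower at 14 days, and 0 to 1 for sham. The share of 14-day calls that were higher was 66.7%, 46.5% with upper-quartile scaling and 91.8% without acinar transcripts, a scaling that moved the median log2 change of all genes to 0.16. The count relative to procollagen stayed at 9 at 7 days and ran from 7 to 8 at 14 days over 2 pseudocounts and the left-out libraries.

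Changes of sign were limited to log2 values that were not called. For Ang II against sham these were Serpinh1 at 14 days (-0.038 with upper-quartile scaling), P4ha1 at 14 days (0.13 without acinar transcripts, 0.0066 in edgeR, 0.11 with the series term), P4ha2 at 14 days (0.088 without acinar transcripts) and Tll1 at 7 days (0.057 in edgeR, 0.041 in DESeq2). For the difference of responses they were P4ha3 (-0.0055 with pseudocount 0.1), Crtap (-0.014 with upper-quartile scaling, -0.0063 in DESeq2), Pcolce2 (-0.0069 with upper-quartile scaling) and P4ha1 (0.027 without acinar transcripts, 0.014 with the series term). For sham they were Fkbp10 (-0.0032 without acinar transcripts) and, with the series term, P4ha2 (0.13), Crtap (-0.097) and Tll1 (-0.24). With a library left out, the ranges that crossed 0 were P4ha1 -0.14 to 0.082, P4ha2 -0.099 to 0.080, Serpinh1 -0.14 to 0.17 and Tll1 -0.24 to 0.093 for Ang II against sham. For the difference they were Bmp1 -0.015 to 0.21, Crtap -0.056 to 0.12, Fkbp10 -0.039 to 0.25, P4ha3 -0.011 to 0.48 and Pcolce2 -0.048 to 0.13. For sham they were Crtap -0.043 to 0.092, Fkbp10 -0.079 to 0.058, P4ha2 -0.083 to 0.013, Pcolce -0.079 to 0.098, Serpinh1 -0.050 to 0.17 and Tll1 -0.084 to 0.096. The low read totals of P4ha3 limit what its values can show.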
